A study of Mus musculus with 12 samples.

Results

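The complement genes C1qa, C1qb, C1qc, C1ra, C2, C3, C4b, Cfb and Serping1 were examined in mouse kidney, as 9 of the 23238 gene symbols measured. They were taken by name as components of the classical and alternative pathways of complement and a regulator of C1, and all 9 passed the filter on low values. Kidney RNA of C57BL/6 mice was sequenced by QuantSeq, which reads the 3′ ends of polyadenylated transcripts, in 3 groups of 4 libraries. The groups were diseased mice on time restricted feeding (CKD TRF), a regimen that limits eating to part of the day, diseased mice (CKD, chronic kidney disease) and control mice (Control). All 3 groups had the same strain and tissue in their labels, which do not give the way the disease was induced, the feeding hours, the sex, the age, the time of sampling or which animal a library came from. The p-values below therefore measure only the spread between these libraries, which may be technical. Levels are given as scaled reads, the deposited values taken off their log2 scale, which sum to 941189 to 1180101 in a library. A change is the difference between group means on the deposited log2 scale, tested with limma over 13943 genes with Benjamini-Hochberg adjustment and called at an adjusted p below 0.05.

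Complement is a cascade of secreted proteins in which proteases cleave the next component on a target surface. In the classical pathway C1q binds the target and its attached proteases C1r and C1s cleave C4 and C2, while the alternative pathway uses factor B and factor D to amplify the cleavage of C3, where the pathways meet. Liver makes most plasma complement, macrophages and dendritic cells make most C1q, and tubular epithelium and interstitial cells of the kidney can make C3, C4 and factor B locally.

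The genes lay on 4 chromosomes of the mm10 genome. C1qb, C1qc and C1qa stood side by side on the reverse strand of chromosome 4, at 136880129 to 136886187, 136889804 to 136893065 and 136895917 to 136898803, within 18675 bases. C4b (34728380 to 34743882), Cfb (34856374 to 34862518) and C2 (34862604 to 34898265) lay on the reverse strand of chromosome 17 in the major histocompatibility complex, with 85 bases between Cfb and C2. C3 lay elsewhere on chromosome 17 (57203970 to 57228136, reverse strand), Serping1 on chromosome 2 (84765387 to 84775444, reverse strand) and C1ra on chromosome 6 (124512405 to 124523443, forward strand). RefSeq promoter sequences of GRCm38.p6, the assembly of mm10, were at hand for 4 members, C1qb, C1qc, C1ra and C3. The 250 bases before the RefSeq start site are shown for C1qb and C1qc, neighbours that both rose against Control, and for C3, the member with the largest change. They cover chr4:136886201-136886450, chr4:136892915-136893164 and chr17:57228137-57228386, all on the reverse strand and written 5′ to 3′, with motif matches in capitals.
C1qb: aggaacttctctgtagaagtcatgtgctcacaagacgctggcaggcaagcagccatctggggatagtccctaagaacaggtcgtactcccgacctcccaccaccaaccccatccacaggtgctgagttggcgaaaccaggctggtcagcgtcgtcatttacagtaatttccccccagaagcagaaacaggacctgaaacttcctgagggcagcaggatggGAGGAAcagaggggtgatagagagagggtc
C1qc: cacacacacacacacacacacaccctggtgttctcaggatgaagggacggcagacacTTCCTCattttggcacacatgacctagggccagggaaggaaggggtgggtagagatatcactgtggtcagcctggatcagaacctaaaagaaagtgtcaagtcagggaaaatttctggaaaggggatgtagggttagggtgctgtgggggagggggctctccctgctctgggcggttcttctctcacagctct
C3: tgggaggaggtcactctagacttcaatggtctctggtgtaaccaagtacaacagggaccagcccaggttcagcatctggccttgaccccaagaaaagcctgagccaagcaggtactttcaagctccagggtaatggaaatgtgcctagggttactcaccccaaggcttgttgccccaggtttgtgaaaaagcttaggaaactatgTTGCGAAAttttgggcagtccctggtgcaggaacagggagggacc

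Windows of 300 bases, from 250 before to 50 after the start, were searched on both strands for 5 motifs. The capitals in C1qb are GAGGAA, the core of the motif of PU.1, a myeloid transcription factor, beginning 30 bases before the start. C1qc held the same core on the other strand, TTCCTC, beginning 193 bases before the start. That RefSeq start lies inside the annotated C1qc gene (136889804 to 136893065), so the distance holds for the RefSeq start only. C3 held TTGCGAAA, a match to the C/EBP motif TTGCNNAA, beginning 45 bases before the start. Over the 32851 RefSeq promoters, 28.3% held GAGGAA and 10.8% held TTGCNNAA, so the PU.1 core is common in windows of this length. It was in 3 of the 4 members' windows (C1qb, C1qc and C1ra) and the C/EBP motif in 2 (C1ra and C3). The gamma-activated site TTCNNNGAA was in 1 of the 4 (C1ra) and in 8.30% of all promoters. The matches in C1ra began after the start, at base 45 (PU.1), 17 (C/EBP) and 33 (gamma-activated site). The NF-kB motif GGNNTTTCC (5.82% of all promoters) and the interferon-stimulated response element GAAANNGAA (8.56%) were in none of the 4. The motifs do not overlap in the printed stretches, and a match is a description of letters only.

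The libraries held 14146111 to 17209849 reads in CKD TRF, 14512578 to 16857891 in CKD and 10989976 to 12810829 in Control, and a gene with no read in a library could still stand at up to 3 reads, worth 0.168 to 0.306 scaled reads. The kidney label was checked against 12 proximal tubule markers, which summed to 34537 to 41760 scaled reads in CKD TRF, 30337 to 36841 in CKD and 53408 to 71555 in Control. Control 2 stood apart from the other Control libraries. Its read counts differed from theirs with a chi-square per degree of freedom of 43.0 to 59.9, against 9.98 to 29.1 for the other 15 pairs of libraries within a group, and its ribosomal Rn45s, at 11.3% of scaled reads, lay in the range of the diseased libraries. Rn45s took 11.04% to 13.3% of scaled reads in CKD TRF and 9.59% to 11.5% in CKD, against 5.07% to 7.195% in the other 3 Control libraries, and its part in the changes below was not tested. Fat-restricted transcripts (Adipoq, Plin1, Cidec, Retn and Cidea) summed to 0.133 to 63.4 scaled reads in CKD TRF, 2.96 to 173 in CKD and 0 to 0.817 in Control, and urothelial markers to 32.8 to 121, 28.9 to 141 and 3.68 to 14.7 in the same order. Fewer cells of a type and less RNA per cell cannot be told apart in whole tissue.

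Most of these complement transcripts were more abundant in diseased kidneys. In CKD TRF against Control 7 of the 9 were called higher (C1qa, C1qb, C1qc, C1ra, C3, C4b and Serping1), 1 was called lower (Cfb) and C2 missed the threshold, where 37.5% of all tested genes were called, 19.5% higher and 17.9% lower. In CKD against Control the same 7 members were higher, Cfb was lower and C2 missed the threshold, with 45.4% of all tested genes called, 23.6% higher and 21.8% lower. The median change of the 9 members was 1.82 in CKD TRF against Control and 1.94 in CKD against Control, beside medians of 0.01 and 0.02 over all tested genes. Both comparisons share the 4 Control libraries. Of the calls over all genes in CKD against Control, 3297 were higher and 3036 lower on the deposited scale, 4989 and 1547 with libraries scaled to equal sums, and 2650 and 3918 with libraries centred on their medians. In CKD TRF against Control the same 3 scales gave 2724 higher and 2501 lower, 3656 and 1431, and 2296 and 3227. The directions of the 9 members against Control were the same on all 3. No member was called between CKD TRF and CKD, where 0% of tested genes passed in limma (890 of 13943 had an unadjusted p under 0.05) and limma voom on the recovered reads also called 0 (1382 unadjusted). The range of libraries of the 8 called members did not overlap with Control in either diseased group; such separation was found for 31.9% of all tested genes in CKD TRF against Control (16.3% higher and 15.6% lower) and for 39.5% in CKD against Control (20.3% and 19.2%).

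**Figure D1:**
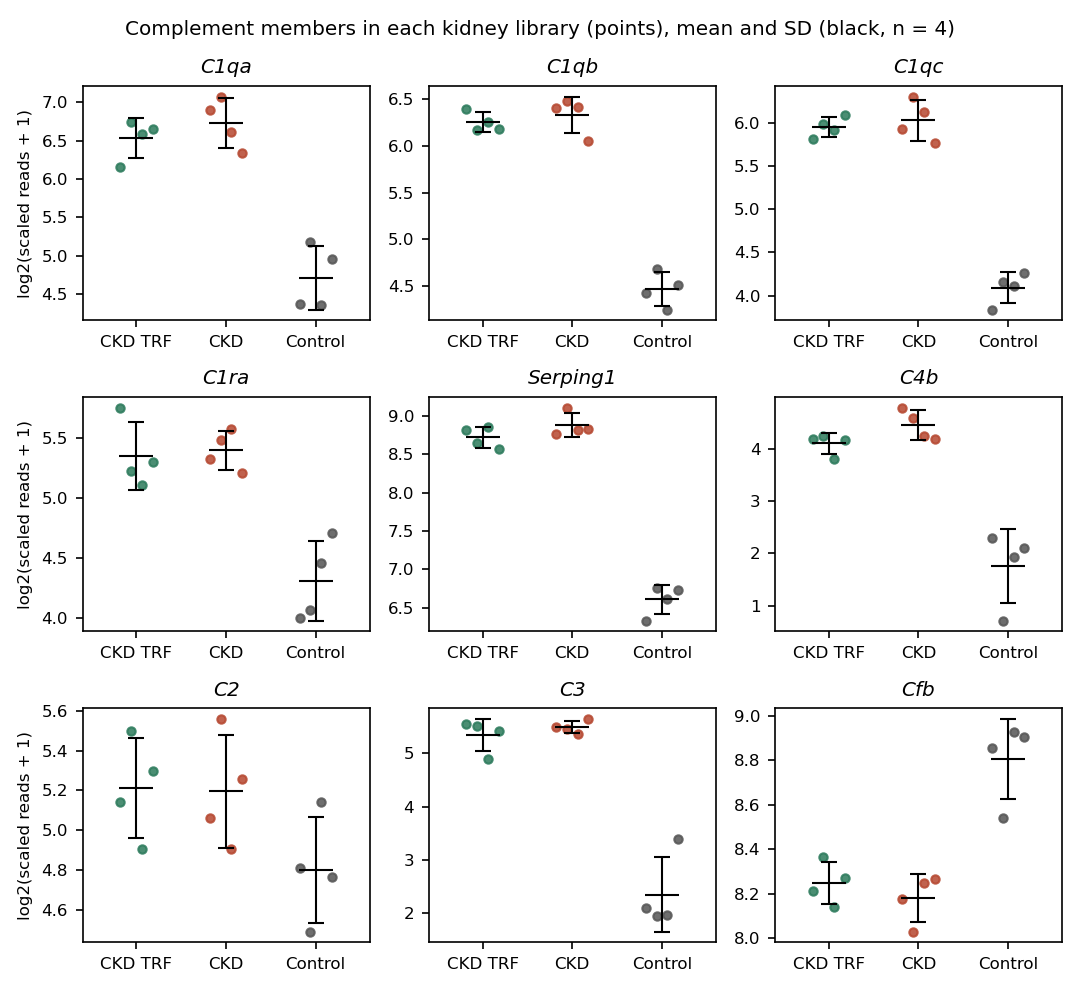
Deposited log2(scaled reads + 1) of each of the 9 complement genes (vertical axes, 1 panel a gene, each with its own range) in the 4 libraries of CKD TRF, CKD and Control (points), with the mean and SD in black. Both diseased groups lie above all Control libraries for 7 genes and below them for Cfb, and C2 overlaps.

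The 3 chains of C1q, the recognition subunit that binds antibody complexes and dying cells, were several times as abundant in diseased as in Control kidneys. C1qa had 70.6, 106, 95.003 and 99.3 scaled reads in CKD TRF 1 to 4, 118, 134, 96.7 and 79.7 in CKD 1 to 4, and 19.6, 35.3, 19.5 and 30.0 in Control 1 to 4. The highest Control library, Control 2, stayed below every diseased library, and CKD TRF and CKD overlapped. C1qb had 83.1, 70.9, 75.5 and 71.2 scaled reads in CKD TRF, 83.2, 87.7, 83.9 and 65.2 in CKD, and 20.5, 24.8, 18.03 and 21.8 in Control. C1qc had 55.2, 62.1, 59.2 and 67.0 scaled reads in CKD TRF, 59.8, 77.8, 68.6 and 53.2 in CKD, and 13.3, 16.9, 16.3 and 18.2 in Control. For both chains CKD TRF and CKD overlapped, and no library of either reached down to Control. The changes in CKD TRF against Control were 1.82 ± 0.18 for C1qa (adjusted p = 3.1e-07), 1.78 ± 0.12 for C1qb (1.4e-09) and 1.86 ± 0.13 for C1qc (2.1e-09), each ± SE from limma with n = 4 a group. In CKD against Control they were 2.01 ± 0.18 (adjusted p = 5.0e-08), 1.86 ± 0.12 (5.0e-10) and 1.94 ± 0.13 (8.4e-10) in limma. The intervals of the 3 chains overlapped in each comparison. As linear ratios of scaled reads plus 1, the 3 changes were 3.53, 3.43 and 3.62 in CKD TRF and 4.04, 3.63 and 3.82 in CKD. With covariates for the fat and urothelium markers the 3 calls ended in CKD TRF against Control. The changes were 0.97, 1.24 and 1.31 (limma adjusted p of 0.407, 0.0749 and 0.0994). In that fit 56 of 13943 genes were called in place of 5225. Summed urothelium markers were higher in every diseased library than in any Control library, so this fit cannot tell them apart from disease.

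The mean balance between the C1q chains was much the same in the 3 groups, while single libraries varied. C1qa minus C1qb on the log2 scale averaged 0.29 ± 0.36 in CKD TRF, 0.40 ± 0.19 in CKD and 0.24 ± 0.27 in Control (SD, n = 4). C1qa minus C1qc averaged 0.59 ± 0.18, 0.70 ± 0.22 and 0.62 ± 0.33 in the same order. In CKD TRF, where C1qa was lowest and C1qb highest in CKD TRF 1, the SD of C1qa minus C1qb was larger than that of either chain alone (0.26 for C1qa and 0.11 for C1qb). Differences between groups in these balances were -0.11 to 0.15, smaller than the SD within the groups. The sum of 12 macrophage markers rose with C1q, to 455 to 615 scaled reads in CKD TRF and 497 to 590 in CKD against 145 to 176 in Control. In each comparison with Control 11 of the 12 were called higher, where 19.5% of all tested genes were called higher in CKD TRF and 23.6% in CKD. The marker not called changed by -0.57 in CKD TRF, where its libraries all lay below Control, and the one not called in CKD by -0.09. None was at 0 in any group. C1qb minus the log2 of that sum averaged -2.74 ± 0.28 in CKD TRF, -2.78 ± 0.10 in CKD and -2.85 ± 0.10 in Control. The differences from Control were 0.11 and 0.07, smaller than the SD between CKD TRF or CKD libraries. Without the 5 libraries highest in fat-restricted transcripts the difference in CKD TRF was -0.25, on the 1 library left. The part of macrophage number in the change of C1q was not tested beyond this ratio.

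C1ra encodes the protease C1r, which is activated when C1q binds and then cleaves C1s. It had 53.0, 36.5, 33.6 and 38.5 scaled reads in CKD TRF 1 to 4, 39.0, 43.9, 46.7 and 36.1 in CKD, and 15.01, 15.7, 21.0 and 25.1 in Control. CKD TRF 1 was the highest library of all, and the lowest diseased library, CKD TRF 3, was above the highest Control. The change was 1.04 ± 0.16 in CKD TRF against Control (limma adjusted p = 5.1e-05) and 1.09 ± 0.16 in CKD against Control (2.1e-05). With the fat and urothelium covariates it was 0.79 (limma adjusted p = 0.518) and 0.91 (0.184) in these comparisons, which ended both calls. C1rb, a near-identical copy on chromosome 6 at 124570294 to 124581171 outside the naming rule, had changes of 0.35 ± 0.19 and 0.28 ± 0.19 (limma adjusted p = 0.143 and 0.240), and reads could be shared between the copies.

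Serping1, the C1 inhibitor, inactivates C1r, C1s and the proteases of the lectin pathway and also kallikrein. It had 448, 400, 461 and 378 scaled reads in CKD TRF 1 to 4, 432, 550, 449 and 452 in CKD, and 79.4, 107, 97.2 and 105 in Control. Every diseased library stood more than 3 times above every Control library, with CKD 2 the highest. The change was 2.11 ± 0.11 in CKD TRF against Control (limma adjusted p = 2.8e-11) and 2.27 ± 0.11 in CKD against Control (6.3e-12). Over 27 alternatives of processing, with the fit without CKD 4 counted under 2 names, the call held in both comparisons. The changes were 1.35 to 2.27 and 1.65 to 2.51.

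The gap between the inhibitor and the protease was wider in every diseased library than in any Control library. Serping1 minus C1ra averaged 3.37 ± 0.29 in CKD TRF, 3.48 ± 0.18 in CKD and 2.30 ± 0.29 in Control on the log2 scale (SD, n = 4). The lowest diseased library stood at 3.06 and the highest Control library at 2.69, so the groups did not overlap. The differences from Control were 1.07 and 1.18 (exact permutation p = 0.0286 each, the smallest that 4 against 4 allows, and 0.107 after adjustment over 15 tests), so they did not pass the adjusted threshold although the groups were fully apart.

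**Figure D2:**
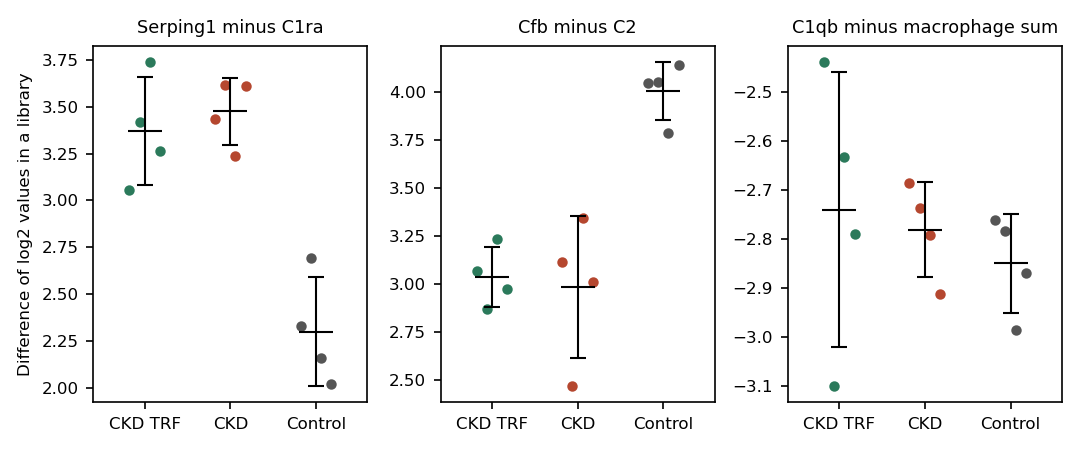
Differences between 2 log2 values within each library (vertical axes, 1 panel a pair) for Serping1 minus C1ra, Cfb minus C2 and C1qb minus the log2 sum of 12 macrophage markers, in CKD TRF, CKD and Control (points), with mean and SD in black. Serping1 minus C1ra is about 1 unit higher and Cfb minus C2 about 1 unit lower in the diseased groups than in Control, and C1qb minus the macrophage sum overlaps.

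C4b encodes complement C4, which C1s cleaves to start the classical C3 convertase. It had 17.2, 17.9, 12.9 and 16.9 scaled reads in CKD TRF 1 to 4, 26.5, 22.9, 17.99 and 17.1 in CKD, and 3.88, 0.645, 2.81 and 3.29 in Control. Control 2 was the lowest library, at 7 reads, and every diseased library had at least 217. The change was 2.34 ± 0.26 in CKD TRF against Control (limma adjusted p = 1.0e-06) and 2.69 ± 0.26 in CKD against Control (1.0e-07), and 1.99 and 2.34 without Control 2. C4a, a near-identical copy on the same chromosome (34809092 to 34823464), changed by 1.00 ± 0.29 (limma adjusted p = 0.00925) and 1.43 ± 0.29 (4.3e-04) from a Control mean of 0.956 scaled reads. Reads could be split between C4b and C4a, so the value of either is uncertain. For C4a the libraries of CKD TRF and Control overlapped, and its call in CKD TRF ended with quantile normalization (limma adjusted p = 0.0628). The fat and urothelium covariates ended its calls in CKD TRF and CKD against Control (limma adjusted p = 0.492 and 0.117).

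C2 encodes the protease subunit that joins C4 in the classical convertase, and it was the member with the smallest change. It had 34.3, 44.1, 29.0 and 38.4 scaled reads in CKD TRF 1 to 4, 32.4, 46.2, 29.0 and 37.2 in CKD, and 27.1, 21.5, 34.3 and 26.2 in Control. Control 3 lay inside the range of both diseased groups, and the other 3 Control libraries lay below it. The change was 0.41 ± 0.16 in CKD TRF against Control (95% interval 0.07 to 0.74, limma adjusted p = 0.0512) and 0.39 ± 0.16 in CKD against Control (0.06 to 0.73, adjusted p = 0.0517). It was called under 7 of 27 alternatives in each comparison, among them scaling to equal sums, where C2 changed by 0.55 and 0.61 (limma adjusted p = 0.0170 and 0.00659) and the median of all tested genes by 0.14 and 0.23. In CKD TRF against Control it was also called without Control 3, CKD 2, CKD 3 or CKD TRF 3 (limma adjusted p of 0.0167 to 0.0487), and in CKD against Control without Control 3, CKD 3, CKD TRF 2 or CKD TRF 3 (0.0164 to 0.0472).

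C3 is the component at which the pathways meet, and its cleavage products tag surfaces and attract leukocytes. It had 45.9, 44.6, 28.6 and 41.8 scaled reads in CKD TRF 1 to 4, 43.8, 43.1, 40.4 and 49.0 in CKD, and 3.27, 2.86, 2.89 and 9.50 in Control. CKD TRF 3 was the lowest diseased library and Control 4 the highest Control, with a wide gap between them. The change was 2.99 ± 0.24 in CKD TRF against Control (limma adjusted p = 1.6e-08) and 3.14 ± 0.24 in CKD against Control (4.7e-09), the largest of the 9 members in both. As a ratio of scaled reads plus 1 this was 7.97 and 8.84. Without Control 4 the changes were 3.34 and 3.49.

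Cfb encodes factor B, the protease subunit of the alternative pathway convertase, and it was the member that fell. It had 296, 329, 281 and 308 scaled reads in CKD TRF 1 to 4, 288, 260, 303 and 307 in CKD, and 463, 372, 486 and 478 in Control. Control 2 was the lowest Control library and still above every diseased one. The change was -0.56 ± 0.10 in CKD TRF against Control (limma adjusted p = 2.0e-04) and -0.63 ± 0.10 in CKD against Control (4.3e-05). With equal sums per library it was -0.41 and -0.40 (limma adjusted p = 0.00549 and 0.00521), while the median of all tested genes stood at 0.14 and 0.23, and with quantile normalization it was -0.30 and -0.31 (0.0179 and 0.0113). With the fat and urothelium covariates, the latter not separable from disease, it was -0.01 (limma adjusted p = 0.996) and -0.18 (0.688). Both calls ended. Without the 5 libraries highest in fat-restricted transcripts it was -0.44, on the 1 CKD TRF library left, and -0.60 (limma adjusted p = 0.00756). Of 12 proximal tubule markers 7 were called lower in CKD TRF and 8 in CKD against Control, and none higher. Among all tested genes 17.9% and 21.8% were called lower. The changes of these markers ran from -0.96 to 0.17 in CKD TRF and from -1.11 to -0.29 in CKD. The part of these markers in the fall of Cfb was not tested.

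The gap between Cfb and its neighbour C2 was narrower in every diseased library than in any Control library. Cfb minus C2 averaged 3.04 ± 0.15 in CKD TRF, 2.99 ± 0.37 in CKD and 4.01 ± 0.15 in Control on the log2 scale (SD, n = 4). The highest diseased library stood at 3.34 and the lowest Control library at 3.79, so the groups did not overlap. The differences from Control were -0.97 and -1.02 (exact permutation p = 0.0286 each, the smallest possible, adjusted 0.107), which did not pass the adjusted threshold. Nelfe, looked at after the values were seen because its annotated 3′ end on the forward strand lies 1 base from that of Cfb, averaged 23.6, 22.0 and 20.2 scaled reads in CKD TRF, CKD and Control and was not called (limma adjusted p = 0.175 in CKD TRF against Control and 0.461 in CKD against Control). The annotated gene Gm20547 (34856412 to 34882042) overlaps Cfb and C2 on the same strand, so reads of these genes cannot be assigned with certainty.

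**Figure D3:**
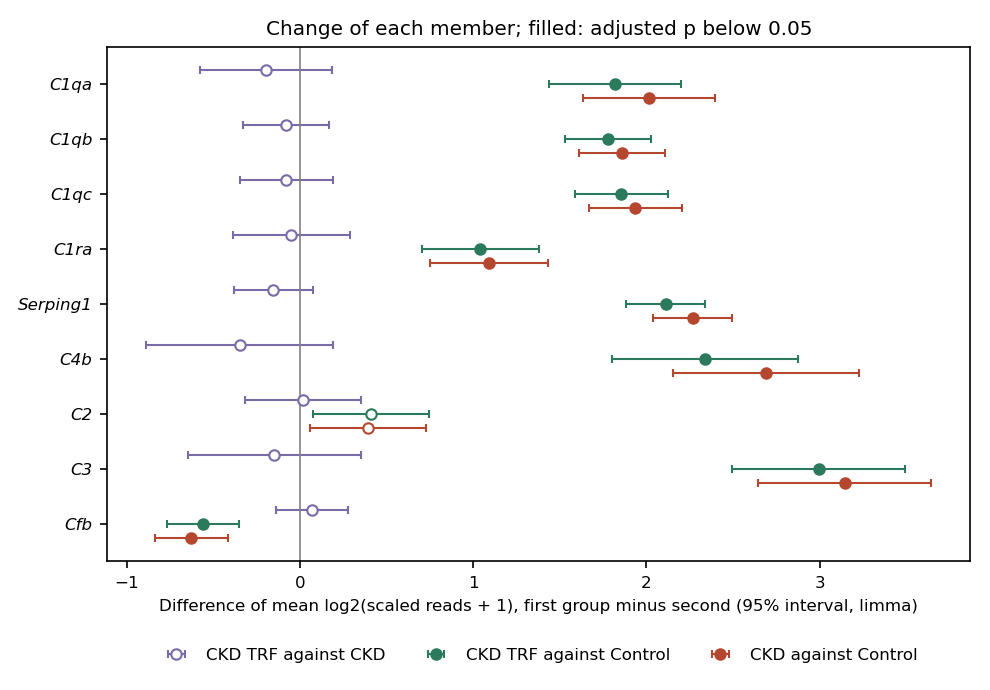
Difference of mean log2(scaled reads + 1) for each of the 9 complement genes (rows) with its 95% interval from limma (horizontal axis), for CKD TRF against CKD, CKD TRF against Control and CKD against Control; filled points have an adjusted p below 0.05. Changes from Control run from -0.63 for Cfb to 3.14 for C3, and all intervals for CKD TRF against CKD include 0.

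Time restricted feeding was compared with CKD alone to see what it changed in diseased kidneys, and none of the 9 complement genes passed the test. The changes of CKD TRF against CKD ran from -0.35 for C4b to 0.07 for Cfb, with a median of -0.08 beside -0.01 over all tested genes and limma adjusted p-values of 0.843 to 0.991. For Serping1 the change was -0.16 ± 0.11 (95% interval -0.38 to 0.07), with CKD at 432 scaled reads or more and CKD TRF at 461 or less. The C1q chains had intervals of -0.58 to 0.19 (C1qa), -0.33 to 0.17 (C1qb) and -0.35 to 0.19 (C1qc), and C1ra of -0.39 to 0.29. Each of these intervals included 0. The intervals of C2 (-0.32 to 0.35), C3 (-0.65 to 0.35) and Cfb (-0.14 to 0.28) also included 0. C4b had the widest interval, -0.89 to 0.19, and its point estimate was the lowest. In every member the libraries of CKD TRF and CKD overlapped, where 4.5% of all tested genes had groups that did not, 2.37% with CKD TRF higher and 2.13% with it lower. A miss of the threshold does not show that the groups were alike, and these intervals give the changes the data still allow.

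The wider pathway was read from a list of 53 other complement genes, of which 37 passed the filter and 16 did not (Colec10 and Fcnb were above 0 in no library). In CKD TRF against Control 18 of the 37 were higher, 4 lower and 15 not called, with a median change of 0.64, where 19.5% of all tested genes were higher and 17.9% lower. In CKD against Control 22 were higher, 6 lower and 9 not called, with a median of 0.75, where 23.6% of all tested genes were higher and 21.8% lower. Rises outnumbered falls in both comparisons with Control. The filter used the mean over all 12 libraries, which favours genes that are high in the diseased groups. C6, Cfd and C5ar1 had Control means of 0.25, 0.34 and 0.62 on the log2 scale, below the 0.73 of the filter. They passed it through the diseased groups, and a fall from such levels could hardly have been seen. Between CKD TRF and CKD none of the 37 was called, with a median of -0.02. With the fat and urothelium covariates 2 of the 37 were higher in CKD TRF and 6 in CKD against Control, and none lower, in fits that called 56 and 516 of the 13943 genes.

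Around the early components, C1s1, the C1s protease, rose by 1.44 ± 0.13 in CKD TRF and 1.56 ± 0.13 in CKD against Control (limma adjusted p = 8.3e-08 and 1.6e-08); it lay outside the naming rule and is given as the partner of C1r. C1rl, a protease related to C1r, fell by 0.72 ± 0.13 and 0.90 ± 0.13 (limma adjusted p = 2.5e-04 and 1.6e-05). Of 4 tested lectin pathway genes 1 was called higher in each comparison and none lower, a share near the 19.5% and 23.6% of all tested genes called higher. Membrane regulators went both ways, with 1 of 6 tested called higher and 1 lower in CKD TRF against Control, and 2 higher and 2 lower in CKD. Of all tested genes 17.9% and 21.8% were called lower. Among them Cd55, a membrane protein that speeds the decay of the convertases, averaged 5.88, 6.21 and 10.3 scaled reads in CKD TRF, CKD and Control. It fell by 0.68 ± 0.20 and 0.63 ± 0.20 (limma adjusted p = 0.0132 and 0.0172). The call of Cd55 ended without Control 1 in both comparisons (limma adjusted p = 0.0668 and 0.0865) and without CKD 2 or CKD 4 in CKD against Control (0.0546 and 0.0592), where it also ended with equal sums (0.0941).

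Of 9 tested receptors 6 rose in CKD TRF and 8 in CKD against Control, and none fell. Of 5 tested fluid-phase regulators 4 rose in each comparison, though not the same 4 genes, and none fell. Of all tested genes 19.5% were called higher in CKD TRF and 23.6% in CKD against Control, and 17.9% and 21.8% lower. C3ar1, the receptor for the fragment C3a on myeloid cells, averaged 23.0 ± 5.42 scaled reads in CKD TRF, 20.8 ± 1.60 in CKD and 2.97 ± 0.65 in Control, changes of 2.59 ± 0.18 and 2.47 ± 0.18 (limma adjusted p = 1.8e-09 and 2.2e-09). C5ar1, the receptor for C5a, changed by 1.96 ± 0.26 and 1.90 ± 0.26 (limma adjusted p = 8.5e-06 and 8.0e-06), and it passed the filter through the diseased groups. Itgam and Itgb2, which together form complement receptor 3 of leukocytes, changed by 1.73 ± 0.25 and 1.73 ± 0.21 in CKD TRF and by 1.96 ± 0.25 and 1.92 ± 0.21 in CKD (limma adjusted p of 5.1e-07 to 2.2e-05). These receptors rose with the summed macrophage markers given above, whose part was not tested. Markers of neutrophils, which also carry C5ar1, Itgam and Itgb2, summed to 5.23 to 12.3 scaled reads in CKD TRF, 3.54 to 8.85 in CKD and 3.83 to 34.6 in Control, with Mpo at 0 in every library.

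Terminal components, which build the membrane attack complex, went both ways, with C6 and C7 higher and C8a and C8g lower in each comparison with Control. C8a averaged 19.6 ± 5.75 scaled reads in CKD TRF, 16.5 ± 1.91 in CKD and 42.4 ± 10.4 in Control, changes of -1.08 ± 0.20 and -1.28 ± 0.20 (limma adjusted p = 3.0e-04 and 3.8e-05). C8g changed by -0.73 ± 0.14 and -0.99 ± 0.14 (limma adjusted p = 4.6e-04 and 1.5e-05) from a Control mean of 31.0 scaled reads. C6 averaged 3.21, 3.09 and 0.208 scaled reads in CKD TRF, CKD and Control and rose by 1.78 ± 0.28 and 1.71 ± 0.28 (limma adjusted p = 5.8e-05 and 5.9e-05). Its Control level lay below the filter, which it passed through the diseased groups. Apcs, a pentraxin that binds C1q, averaged 1.40, 0.951 and 2.42 scaled reads in the same order. Its change was -0.52 ± 0.25 in CKD TRF (limma adjusted p = 0.1025) and -0.86 ± 0.25 in CKD (0.00771). Apcs had few reads, 64 over the 4 CKD libraries with 3 in CKD 4. Its call in CKD ended with the fat and urothelium covariates (limma adjusted p = 0.221). Hepatocyte markers summed to 1101 to 1248 scaled reads in CKD TRF, 1078 to 1301 in CKD and 1411 to 1775 in Control, but the 7 tested went both ways, with 2 higher and 1 lower in CKD TRF (median change 0.12) and 1 higher and 2 lower in CKD (median -0.14). Their part in these falls was not tested.

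Cfd, factor D, which cleaves factor B and is made by fat cells, had the largest change of the list and the least even values. It had 46.9, 0.265, 46.2 and 86.0 scaled reads in CKD TRF 1 to 4, 8.36, 98.5, 2.09 and 258 in CKD, and 0.1019, 0.8289, 0 and 0.274 in Control. CKD TRF 2 lay inside the Control range, and the libraries high in Cfd were those high in fat-restricted transcripts, which summed to 38.1, 0.133, 28.7 and 63.4 scaled reads in CKD TRF 1 to 4 and 3.57, 94.97, 2.96 and 173 in CKD 1 to 4. The limma changes were 4.14 ± 1.12 in CKD TRF (adjusted p = 0.00657) and 4.54 ± 1.12 in CKD (0.00268) against Control. In limma voom the changes were larger, 6.36 ± 6.25 and 7.17 ± 6.22, and both calls ended (adjusted p = 0.454 and 0.361). Without the 5 libraries highest in fat-restricted transcripts the change in CKD TRF was -0.001, on the 1 library left, and that in CKD was 2.09 ± 0.41 (limma adjusted p = 0.00221). The 2 CKD libraries left, CKD 1 and CKD 3, still held more of these transcripts than any Control library (0 to 0.817).

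**Figure D4:**
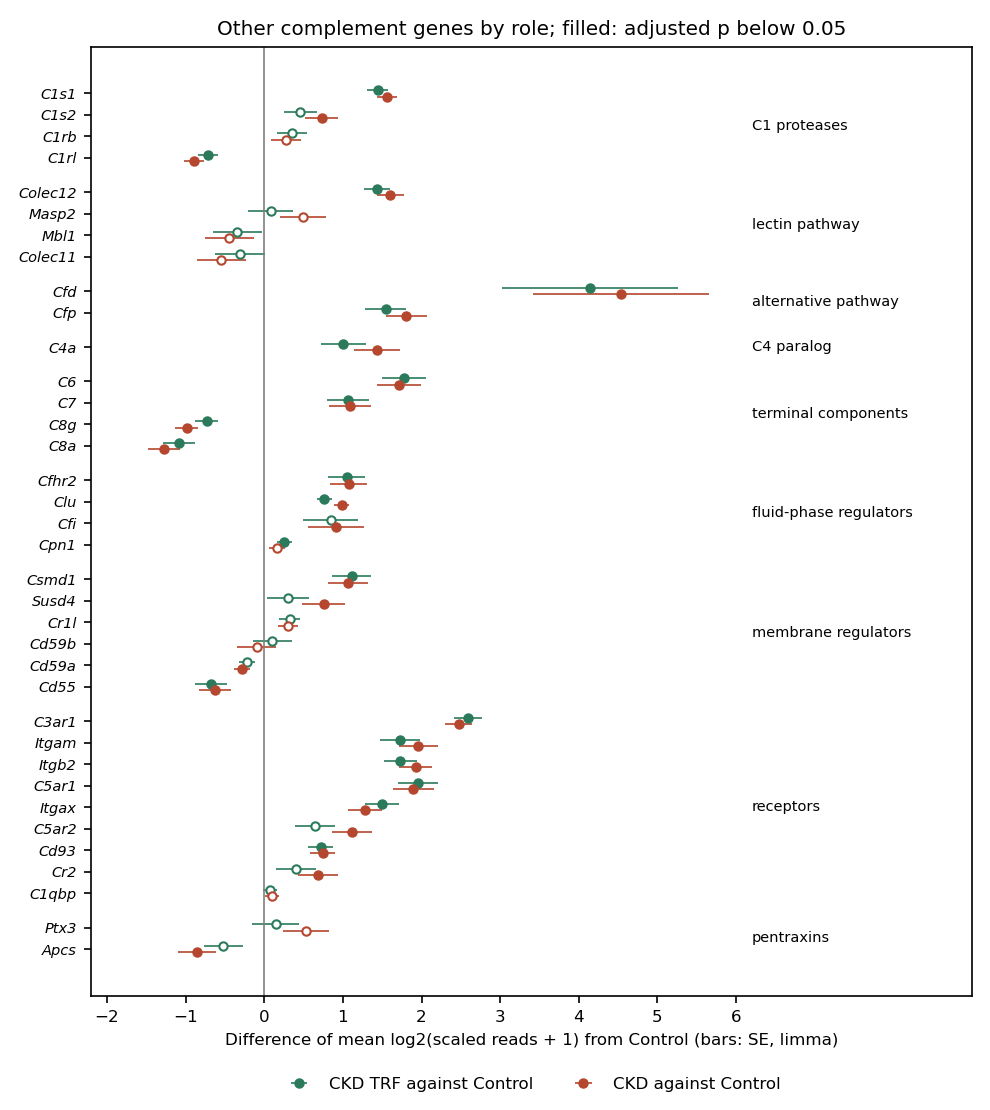
Difference of mean log2(scaled reads + 1) from Control (horizontal axis, bars are the SE from limma) for 36 of the 37 tested genes of the complement list, ordered by role, in CKD TRF and CKD; filled points have an adjusted p below 0.05. Receptors and soluble regulators lie to the right of 0 where called, and membrane regulators lie on both sides. C8a, C8g, C1rl, Cd55 and Apcs are among the genes to the left, and Cfd has the largest change, 4.54 ± 1.12 in CKD.

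For each member the most similar genes were found by the root mean square difference of mean-centred log2 values over the 12 libraries, and none of the nearest 3 of any member was another member. C1qa was nearest to Cx3cr1, a chemokine receptor of macrophages (0.20), then to Basp1 and Apbb1ip. C1qb and C1qc were both nearest to Wfdc2 (0.14 and 0.11), a secreted epithelial protein, followed by Epsti1 and Aebp1 for C1qb and by D17H6S56E-5 and Adcy7 for C1qc. C4b was nearest to Pld4 (0.21), Serpina10 and Ms4a6d. C3 was nearest to Cdh11 (0.29), a cadherin of mesenchymal cells, then to Cd44 and the collagen chain Col3a1, and Serping1 to Timp2 (0.12), the proteoglycan Dcn and Wfdc2. C1ra was nearest to the interferon-inducible Ifi203 (0.13), Tle1 and Mndal. C2 was nearest to Rin2 (0.14), Fam73b and Iars, and Cfb to Ugt1a6b (0.08), Larp1b and D10Wsu102e. After quantile normalization Apbb1ip left the nearest 3 of C1qa, Wfdc2 and Epsti1 those of C1qb, and Wfdc2 and Adcy7 those of C1qc. None of the nearest 3 of C2 or Cfb stayed, while those of C1ra, C3, C4b and Serping1 all did. Fibroblast markers, which include Dcn and Col3a1, summed to 1032 to 1190 scaled reads in CKD TRF, 1263 to 1434 in CKD and 235 to 285 in Control, with 9 of 10 higher in each comparison with Control.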

How the data were processed

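The 12 deposited tables (CKD TRF, CKD and Control, 4 libraries each) held 1 log2 value per gene for 23282 entries; 1 entry per symbol was used, that of highest mean, which left 23238. Per the labels' protocols, 500 ng of Trizol-extracted total RNA went into each QuantSeq library. Bowtie2, bedtools and mm10 are named, without versions, per the submitters' processing notes; the strand setting and the scaling are not given in the sources used here. The deposited log2 values were read from their steps as log2 of scaled reads plus 1, since 98.5% to 100% of values below 20 scaled reads lay within 0.1 of a whole read. The recovered depth was 10989976 to 17209849 reads a library, and the limits of detection cover counting error only, while the intervals come from the spread between libraries. Scaled sums ran from 987841 to 1025834 in CKD TRF, 941189 to 978419 in CKD and 1076773 to 1180101 in Control.

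Genes in the upper 60% by mean (at least 0.73) were fitted in limma 3.58.1 (R 4.3.3) with a mean per group and a prior spread following the level, two-sided, with Benjamini-Hochberg adjustment over 13943 genes. Differences of log2 values understate changes of low genes because of the added 1. On simulated data for CKD against Control over 13943 genes, 83% of genes changed by 1 and 99% of those changed by 2 were recovered. There were 7 false calls among 189. The simulation changed only 100 genes of each size, with independent noise per gene, where 45.4% of genes were called in the data. Its rates therefore need not hold for these libraries. Balances were tested by exact two-sided permutation (scipy 1.17.1). Members and lists were chosen with earlier results of these data known. Named besides the members were, per comparison, up to 4 listed complement genes with the largest change up and up to 4 down among those called, with C4a, Cfd, C3ar1 and C5ar1, and 3 nearest genes a member; 1 further gene of this rule is not reported here, though list counts include it; C1s1, C1rb, C7 and Nelfe are exceptions. The alternatives were other scalings (quantile, median, equal sums), limma voom on recovered reads, and other pseudocounts and filters. Others were 2-group fits, sample weights, no trend, covariates, a replicate block and libraries left out. Leaving out the 5 libraries highest in fat-restricted transcripts was chosen after seeing the data. The 1 library over 2 times Control in adipose markers was CKD 4, so the fit without CKD 4 was counted under 2 names.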

Additional observations from a re-analysis of the deposited data

Results flagged for a closer look

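Among 84 groups of 4 libraries checked for a library far from the other 3 (members, named complement genes, 1 of them not reported here, and 5 differences within libraries), 3 were found, and chance gives about 1 in 20. C3 in Control had its highest library at 3.392 on the log2 scale (Control 4), with the others at 1.947, 1.96 and 2.093. Cfd in CKD TRF had its lowest library at 0.339 (CKD TRF 2), with the others at 5.562, 5.582 and 6.443. C8a in Control had its lowest library at 4.802 (Control 2), with the others at 5.556, 5.611 and 5.635.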

How the results depend on the processing

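Changes of single genes were recomputed under 27 alternatives and differences within libraries under 18 of them. C1qa, C1qb, C1qc, C3, C4b and Serping1 kept their calls in CKD against Control under all 27, and C3, C4b and Serping1 did so in CKD TRF against Control. With the fat and urothelium covariates 3 members were higher and 0 lower in CKD TRF against Control, and 0 were lower in CKD against Control; 2 and 6 of the other listed complement genes were higher in these comparisons and 0 lower in each. Among the 40% of genes with the highest means, 7 and 6 listed genes were higher. Without the 5 libraries with fat-restricted transcripts 0 members were lower and 11 listed genes higher and 1 lower in CKD TRF against Control, 3 listed genes were lower in CKD against Control, and Cfd in CKD TRF stood at -0.001. The fit on the 40% held fewer genes and the fit without the 5 libraries fewer libraries, while the covariate fit kept all 13943 genes. The cause of these shifts was not tested. Near 0, signs turned in CKD TRF against CKD for C2 (-0.0639 with equal sums, -0.0699 in voom), Cfb (-0.0143 in both) and C3 (0.082 without the fat-restricted libraries). Leaving out each library in turn gave -0.169 to 0.0114 for C1qc, -0.186 to 0.0287 for C1ra, -0.0812 to 0.137 for C2 and -0.219 to 0.00225 for C3. Leaving out 1 library at a time gave 7 to 8 members called higher and 1 called lower in each comparison with Control. Without the fat-restricted libraries (1 CKD TRF library left) C1qb minus the macrophage sum was -0.361 in CKD TRF against CKD and -0.25 against Control, and Cfb minus C2 was -0.3605 and -1.14. Other differences within libraries that lay near 0 also turned: C1qa minus C1qc in CKD TRF against Control was 0.0201 with quantile normalization and 0.0175 with a pseudocount of 4, C1qb minus the macrophage sum in CKD against Control -0.0434 with a pseudocount of 4 and in CKD TRF against CKD -0.00182 without the 1 library over 2 times Control in adipose markers, and Cfb minus C2 in CKD TRF against CKD -0.00641 with quantile normalization. With each library left out, C1qa minus C1qb ran from -0.209 to 0.0618 in CKD TRF against CKD and from -0.0603 to 0.216 in CKD TRF against Control, C1qa minus C1qc from -0.0476 to 0.213 in CKD against Control and from -0.162 to 0.0986 in CKD TRF against Control, Cfb minus C2 in CKD TRF against CKD from -0.121 to 0.171, and C1qb minus the macrophage sum from -0.0589 to 0.162. Same-numbered libraries correlated at -0.179 to 0.11 over 12 pairs, which gives no sign of pairing, and the labels do not say what a number marks; with the replicate block 7 members were higher and 1 lower in both comparisons with Control, and 17 and 22 listed genes were higher. Depth limits the genes with few reads over the 4 Control libraries, among them C6 (9), Cfd (13), C5ar1 (26), C4a (42), Itgam (62), Itgb2 (82) and, of the members, C4b (114).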
